A study of Mus musculus with 22 samples.

Results

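The 9 genes described here encode the core of adrenergic lipolysis in the adipocyte: the β-adrenoceptors Adrb1 and Adrb3, the lipases Pnpla2, Lipe and Mgll, the lipase co-activator Abhd5, the lipase inhibitor G0s2, the lipid droplet coat protein Plin1 and the phosphodiesterase Pde3b. They were chosen by name, with earlier results of these data known. Each was found on 1 of the 47643 rows of the WAT count table and 1 of the 55341 rows of the striatum table. RNA was sequenced from white adipose tissue (WAT, of a depot that the labels do not name) and from striatum of wild-type C57BL/6J mice, labelled as males of 8 weeks. WAT was taken from hypothyroid mice given propylthiouracil (PTU, which blocks thyroid hormone synthesis) for 2 weeks and from mice treated with thyroid hormone (TH) for 6 h or 24 h, with 4 libraries in each group. Striatum gave 2 PTU libraries and 4 libraries each at 12 h and 24 h of TH. The labels of the TH libraries do not mention PTU, while the study describes PTU in the food of the WAT mice and 1 injection of hormone. The study lists no induction of hypothyroidism for striatum, so that of the striatum controls is known from labels alone, and in every striatum comparison with PTU the effects of hormone and of a difference in PTU cannot be told apart, nor can they in the interaction of the tissues. The comparisons ask which of these genes differed in WAT after hormone was given to hypothyroid mice, when, and how their levels in a tissue without adipocytes compared.

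Lipolysis frees fatty acids and glycerol from the triglyceride of the lipid droplet. Catecholamines bind the β-adrenoceptors, cyclic AMP rises and protein kinase A phosphorylates perilipin 1 (Plin1) and hormone-sensitive lipase (Lipe), and perilipin 1 then releases Abhd5 to activate adipose triglyceride lipase (Pnpla2). Pnpla2, Lipe and Mgll remove the fatty acids in turn, G0s2 inhibits Pnpla2, and Pde3b degrades cyclic AMP when insulin is present. Thyroid hormone is known to raise lipolysis and the response of adipose tissue to catecholamines.

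The sequence before the start site is shown for the 3 genes called in WAT that have an entry among the RefSeq promoters of GRCm38.p6, because G0s2 and Plin1 were lower and Pnpla2 was higher after TH. An entry was found for 7 of the 9 genes (9 start sites), and none for Adrb3 and Pde3b. Each run is written 5′ to 3′ on the strand of the gene and holds only bases before the GENCODE M21 gene. It covers chr1:193273218-193273438 on the minus strand for G0s2, chr7:141454938-141455187 on the plus strand for Pnpla2 and chr7:79732904-79733026 on the minus strand for Plin1. Capitals mark GGGCGG (a GC box) or TGACG (the core of a cyclic AMP response element) on either strand.
G0s2: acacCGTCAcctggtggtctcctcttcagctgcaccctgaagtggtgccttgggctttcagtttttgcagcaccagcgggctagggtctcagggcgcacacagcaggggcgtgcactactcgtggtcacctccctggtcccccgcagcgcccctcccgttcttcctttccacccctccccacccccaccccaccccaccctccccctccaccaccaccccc
Pnpla2: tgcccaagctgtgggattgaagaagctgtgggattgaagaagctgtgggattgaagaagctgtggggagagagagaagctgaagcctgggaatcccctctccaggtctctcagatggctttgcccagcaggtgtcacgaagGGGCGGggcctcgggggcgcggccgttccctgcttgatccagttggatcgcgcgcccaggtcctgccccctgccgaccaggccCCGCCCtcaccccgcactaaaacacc
Plin1: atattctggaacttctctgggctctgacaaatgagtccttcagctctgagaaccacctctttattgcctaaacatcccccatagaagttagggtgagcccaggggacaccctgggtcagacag

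The windows searched ran from 250 bases before to 50 bases after each RefSeq start, on both strands. The G0s2 window held TGACG on its opposite strand at positions -246 to -242 from the start, a motif that was also in windows of Abhd5, Adrb1 and Mgll and in 20.8% of the 32851 promoters. GGGCGG was found in 35.7% of promoters, in 7 of the 9 windows of these genes, and not in that of Plin1. The G0s2 window held 1 GC box at positions -18 to -13 from the RefSeq start, which lies inside the GENCODE gene and is not printed. AGGTCA, the half-site bound by nuclear receptors, occurred in the window of Abhd5 alone and in 16.3% of all promoters. Neither the DR4 arrangement (a pair of AGGTCA 4 bases apart, 0.0152% of promoters) nor DR1 (1 base apart, 0.0396%) was present in any of the 9 windows. Exact matches are so rare that their absence from 9 windows says little. The study located DR4 elements with a probability matrix and linked binding sites to genes well beyond such windows. The full element TGACGTCA, which contains TGACG, was absent from them and present in 1.79% of promoters. Of the remaining motifs, TATAAA was in no window (13.6% of promoters), CCAAT was in that of Adrb1 (37.4%), and CACGTG was in those of Lipe and Mgll (7.15%).

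The WAT libraries held 17298747 to 26963433 counts and the striatum libraries 8056443 to 10163849. Values are normalised counts, scaled to a common library size within each tissue, and the tables of both tissues were scaled separately. Hr, a known target of the hormone, lay at 91.0 to 167 in WAT of PTU mice, at 1228 to 1821 at 6 h and at 2212 to 2738 at 24 h, and Klf9, another target, at 530 to 888, 2365 to 2921 and 1454 to 2188. In WAT, the summed level of 6 adipocyte markers was 486479 to 653567 in the PTU group, 459725 to 595978 at 6 h and 365418 to 457478 at 24 h, where 3 of the 6 (Adipoq, Retn, Cidec) were called lower. In striatum this sum was 7.25 to 43.7. The sum of 6 stromal markers was 34503 to 76057 in the PTU group of WAT, 25672 to 36254 at 6 h and 28126 to 36627 at 24 h, with Dcn called lower at 6 h and Col3a1 at 24 h. In bulk tissue fewer adipocytes and less RNA per adipocyte cannot be told apart. The sum of 10 brown adipocyte markers was 2227 to 3816 in the PTU group, 5977 to 10769 at 6 h and 8555 to 23550 at 24 h. Of 9 tested markers, 4 were called higher at 6 h and 6 at 24 h. Ucp1 was among them and made up much of the rise, with means of 98.5 in PTU, 2783 at 6 h and 7542 at 24 h. Cox7a1 and Cox8b were called at 24 h alone, and Cidea, Elovl3 and Ebf2 at neither time. The sum of 10 skeletal muscle markers spread from 985 to 538800 over the WAT libraries. In the PTU group it was 232491 and 538800 in replicates 1 and 4 against 2404 and 3999 in replicates 2 and 3. In replicates 1 to 4 it was 10905, 985, 100995 and 3436 at 6 h. At 24 h it was 183784, 300120, 40477 and 84154, so every 24 h library held muscle transcripts. The sum of 8 epithelial markers was 1577 and 3328 in 6 h replicates 1 and 3 and at most 851 in every other WAT library. Among the striatum libraries, 6 of 10, all 4 at 24 h included, had high Xist and hardly any Ddx3y, which goes against the label male. Striatum TH 24 h replicate 2 had 31.4 counts of Drd2, a marker of striatal neurons, and 12585 of the cortical marker Slc17a7. The part of these differences in the results below was not tested except where a value without such libraries, or with their marker sum as a covariate, is given.

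G0s2 was lower at both times, and Pnpla2, the lipase that its product inhibits, was higher at 24 h by a call that depended on the libraries used. Plin1 and Pde3b were lower at 24 h. At 6 h, 1 of the 9 genes was called (edgeR quasi-likelihood test, Benjamini-Hochberg adjusted p under 0.05), none higher and 1 lower, against 7.2% of the 17941 genes tested (4.17% higher, 3.02% lower). At 24 h, 4 of the 9 were called, 1 higher and 3 lower, against 17.1% of all genes (7.46% higher, 9.63% lower). Between 24 h and 6 h, 2 of the 9 were called, both lower, against 7.41% (3.07% higher, 4.34% lower). The median log2 fold change of the 9 genes was -0.02 at 6 h and -0.47 at 24 h, beside medians of -0.03 and -0.0018 over all genes tested. The libraries of the groups did not overlap for 3 of the 9 genes at 6 h (13.9% of all genes), 2 at 24 h (19.3%) and 4 between 24 h and 6 h (21.8%). Both comparisons with PTU share the same 4 PTU libraries, so they are not independent. Because the 9 genes were chosen with earlier results of these data known, their counts beside the shares of all genes are a description.

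**Figure D1:**
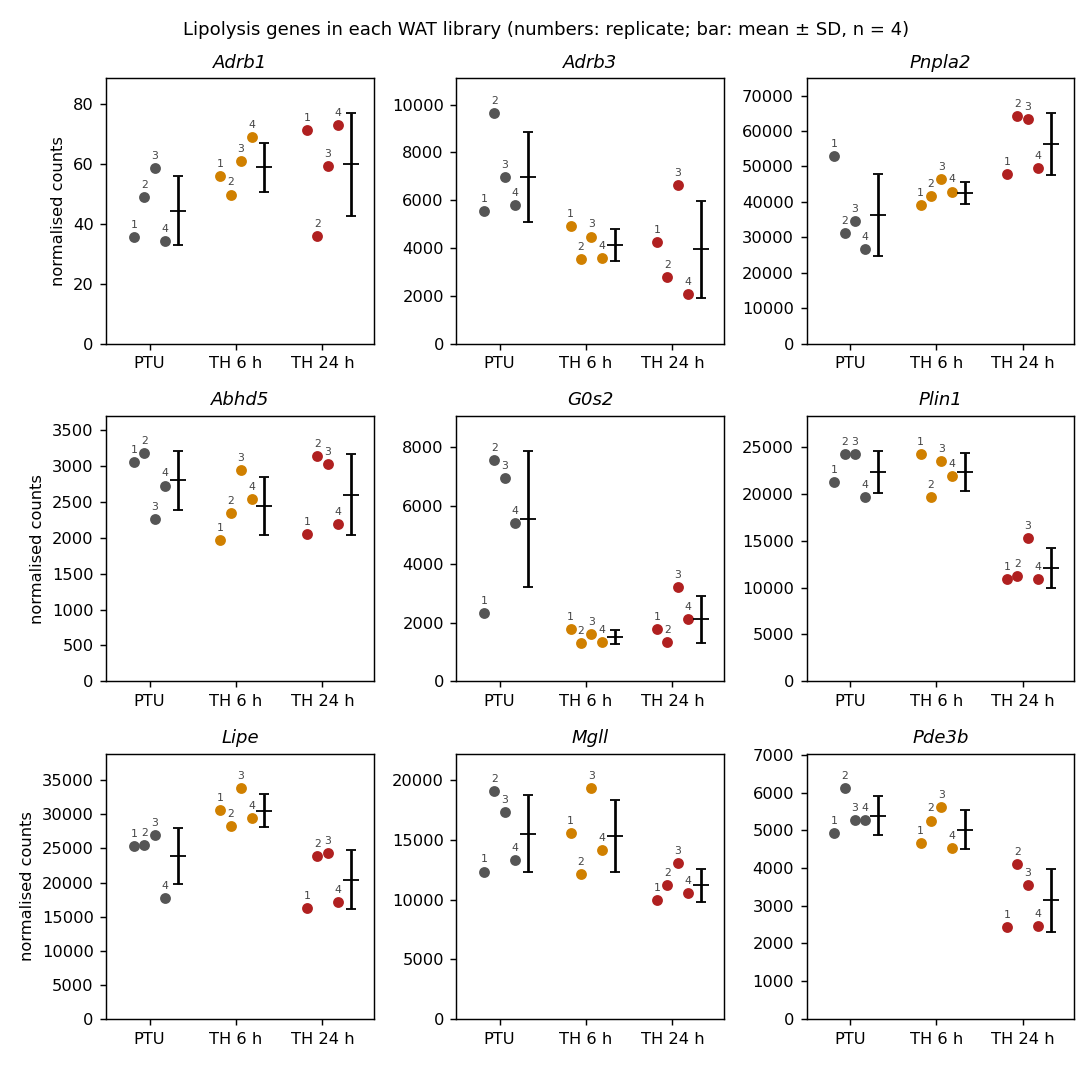
Normalised counts (vertical axes, from 0) of each of the 9 genes in every WAT library of the PTU, TH 6 h and TH 24 h groups; points are libraries with their replicate number, and the bar beside each group is the mean ± SD (n = 4). G0s2 lay at 1305 to 1804 at 6 h, below all PTU libraries, and Plin1 at 10863 to 15233 at 24 h, below every library of the other groups.

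Adrb3 (chromosome 8, 27225776 to 27250616, GRCm38), which encodes the β3-adrenoceptor that is typical of rodent adipocytes, was measured at 5535, 9644, 6963 and 5793 normalised counts in the PTU replicates 1 to 4. It lay at 4925, 3562, 4484 and 3591 at 6 h and at 4266, 2803, 6649 and 2080 at 24 h. All 6 h libraries were below all PTU libraries, while 24 h replicate 3 lay among the PTU values. The log2 difference from PTU was -0.75 ± 0.31 (SE, adjusted p = 0.1501) at 6 h and -0.82 ± 0.31 (adjusted p = 0.0835) at 24 h, so neither was called. The 24 h difference was called by DESeq2 (adjusted p = 0.0272) and without 24 h replicate 3 (-1.19, adjusted p = 0.0130). The antisense gene Gm45470 shares 839 exonic bases with Adrb3, and the strand setting of the counting is not given in the sources used here.

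Adrb1 (chromosome 19, 56722199 to 56733113), encoding the β1-adrenoceptor, was measured at 35.5, 49.1, 58.6 and 34.4 in the PTU libraries, at 55.9, 49.9, 61.1 and 69.0 at 6 h and at 71.4, 35.9, 59.4 and 73.1 at 24 h. The groups overlapped at both times. Its log2 differences of 0.40 ± 0.25 (adjusted p = 0.326) and 0.43 ± 0.25 (adjusted p = 0.259) did not pass the test. Adrb1 rested on 28 to 84 raw counts per library, whereas Adrb3 had 1879 to 8056.

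Pnpla2 (chromosome 7, 141455198 to 141460743), encoding adipose triglyceride lipase, which removes the first fatty acid, was measured at 52962, 31320, 34607 and 26598 in the PTU libraries. It lay at 39069, 41563, 46569 and 42940 at 6 h and at 47792, 64335, 63384 and 49554 at 24 h. All TH libraries were above PTU replicates 2, 3 and 4, and PTU replicate 1 lay within the range of the 24 h group. At 6 h the log2 difference was 0.23 ± 0.19 (adjusted p = 0.486). At 24 h it was 0.63 ± 0.19, a 1.55-fold higher level that was called (adjusted p = 0.0419). This call was made in 8 of 23 alternative fits and in 2 of the 12 that each left out 1 WAT library. The adjusted p ranged from 0.00155 without PTU replicate 1 (log2 difference 0.86) to 0.121 without PTU replicate 2 (0.56). With the skeletal muscle sum as a covariate it was 0.0693, with the replicate number as a block 0.0673, and without PTU replicates 1 and 4 it was 0.00484.

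Abhd5 (chromosome 9, 122351608 to 122381524), whose product activates Pnpla2, was measured at 3054, 3177, 2256 and 2729 in the PTU libraries, at 1966, 2344, 2942 and 2539 at 6 h and at 2057, 3136, 3035 and 2187 at 24 h. The 3 groups overlapped throughout. The log2 differences were -0.20 ± 0.17 (adjusted p = 0.489) and -0.11 ± 0.17 (adjusted p = 0.693). The antisense gene A730085K08Rik shares 950 exonic bases with it and had a mean of 5.40 in WAT.

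G0s2 (chromosome 1, 193272161 to 193273217), whose product binds and inhibits Pnpla2, was measured at 2350, 7560, 6945 and 5406 in the PTU libraries. It lay at 1804, 1305, 1615 and 1351 at 6 h and at 1788, 1358, 3241 and 2127 at 24 h. PTU replicate 1 was far below the other PTU libraries, yet all 6 h libraries were lower still, and at 24 h only replicate 3 was above it. G0s2 fell by 1.87 on the log2 scale at 6 h (SE 0.33, adjusted p = 0.00559), to 0.273 of the PTU level, and by 1.39 at 24 h (SE 0.33, adjusted p = 0.0130), to 0.382 of it. Between 24 h and 6 h the difference of 0.49 ± 0.32 was not called (adjusted p = 0.391). The 24 h call was made in all 23 alternative fits, and the 6 h call in 22 of 23. The 6 h call was lost only without 6 h replicates 1 and 3, the libraries with the highest epithelial sums (log2 difference -2.07, adjusted p = 0.0534). That fit had fewer libraries in the 6 h group, and the call was made with the epithelial sum as a covariate. G0s2 lies opposite Lamb3 and shares no exonic base with it.

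Plin1 (chromosome 7, 79720218 to 79732903), the coat protein that restrains lipases at the droplet until it is phosphorylated, was measured at 21281, 24248, 24189 and 19702 in the PTU libraries. It lay at 24279, 19602, 23477 and 21932 at 6 h and at 10922, 11256, 15233 and 10863 at 24 h. The PTU and 6 h groups coincided, and all 24 h libraries were below both. The log2 difference was -0.0021 ± 0.13 at 6 h (adjusted p = 0.994), with a sign that changed between fits. At 24 h Plin1 fell by 0.89 against PTU (SE 0.14, adjusted p = 0.00103), to 0.540 of its level, in all 23 alternative fits. Against 6 h it fell by 0.89 (SE 0.14, adjusted p = 0.00301), a call that was lost with the epithelial sum as a covariate (adjusted p = 0.0811) and without 6 h replicates 1 and 3 (adjusted p = 0.0619), while the difference stayed between -1.03 and -0.78 in all 23 fits. The adipocyte markers Adipoq, Retn and Cidec were called lower in the comparison of 24 h with PTU, as given above.

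Lipe (chromosome 7, 25379527 to 25398710), encoding hormone-sensitive lipase, which acts on diglyceride, was measured at 25294, 25507, 26961 and 17776 in the PTU libraries. It lay at 30587, 28213, 33832 and 29477 at 6 h and at 16305, 23914, 24304 and 17118 at 24 h. The 6 h libraries were above those of both other groups, which overlapped each other. Its log2 differences from PTU were 0.35 ± 0.17 (adjusted p = 0.205) at 6 h and -0.23 ± 0.17 (adjusted p = 0.374) at 24 h. The difference between 24 h and 6 h was -0.58 ± 0.17 (adjusted p = 0.0546), just above the threshold, and 8 of 23 alternative fits called it, DESeq2 (adjusted p = 0.00706) and those without PTU replicate 1 (0.0381), PTU replicate 4 (0.0212), 24 h replicate 2 (0.0474) or 24 h replicate 3 (0.0468) among them. The antisense gene 4732471J01Rik shares 918 exonic bases with Lipe and had a mean of 22.8 in WAT.

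Mgll (chromosome 6, 88724412 to 88828360), encoding monoglyceride lipase, which removes the last fatty acid, was measured at 12359, 19116, 17342 and 13318 in the PTU libraries. It lay at 15590, 12178, 19348 and 14188 at 6 h and at 9930, 11231, 13107 and 10557 at 24 h. The groups overlapped, although 3 of the 24 h libraries were below every PTU library. The log2 difference was -0.02 ± 0.17 (adjusted p = 0.956) at 6 h and -0.47 ± 0.17 (adjusted p = 0.0813) at 24 h. The latter was called by DESeq2 (adjusted p = 0.0296), without PTU replicate 1 (-0.57, adjusted p = 0.0269) and without PTU replicates 1 and 4 (-0.70, adjusted p = 0.0125).

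Pde3b (chromosome 7, 114415281 to 114539251), which degrades cyclic AMP and carries the antilipolytic signal of insulin, was measured at 4918, 6118, 5267 and 5268 in the PTU libraries. It lay at 4668, 5261, 5618 and 4524 at 6 h and at 2437, 4114, 3546 and 2471 at 24 h. As with Plin1, the PTU and 6 h groups overlapped and all 24 h libraries were lower. The log2 difference at 6 h was -0.10 ± 0.16 (adjusted p = 0.723). At 24 h Pde3b fell by 0.78 (SE 0.16, adjusted p = 0.00718), to 0.583 of the PTU level, in all 23 alternative fits. Against 6 h it fell by 0.68 (SE 0.16, adjusted p = 0.0288), a call made in 16 of 23 alternative fits. Among the fits without 1 library it was lost without 6 h replicate 2 (adjusted p = 0.0692), 6 h replicate 3 (0.0709), 24 h replicate 1 (0.0748) or 24 h replicate 4 (0.0784). It was also lost with the muscle (0.103) or epithelial (0.145) sum as a covariate and without 6 h replicates 1 and 3 (0.179). The difference itself lay between -0.85 and -0.57 in all 23 fits.

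**Figure D2:**
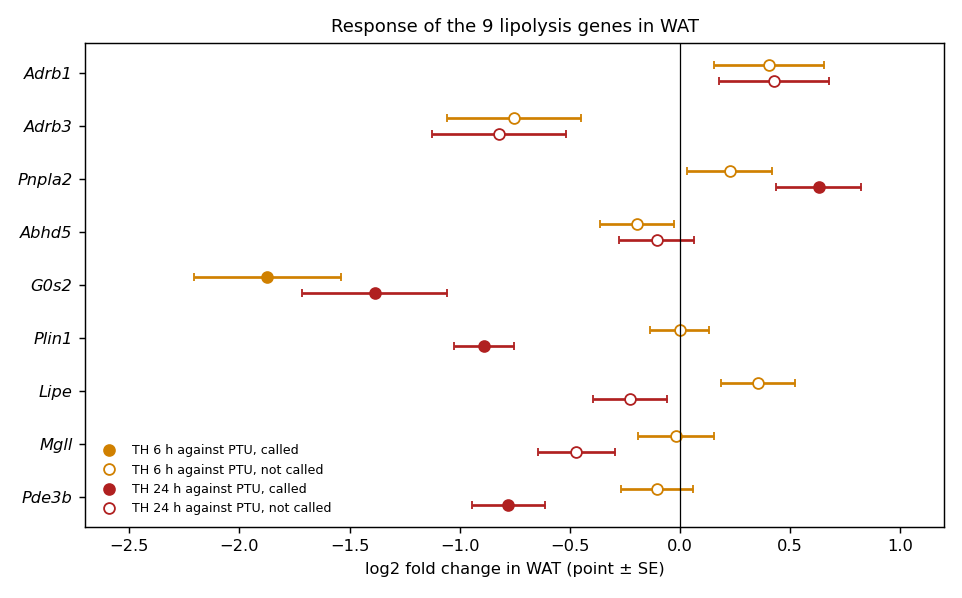
Log2 fold change (horizontal axis, point ± SE) of the 9 genes in WAT at TH 6 h and TH 24 h against PTU (4 libraries a group); filled points were called at an adjusted p under 0.05 and open points were not. G0s2 was called at both times, and Pnpla2, Plin1 and Pde3b at 24 h.

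The balance between partners was followed as the log2 ratio of their counts within each library, for 6 ratios and both times against PTU (12 exact two-sided permutation tests). With 4 libraries against 4 the smallest p is 0.0286, which came to 0.0686 after adjustment over the 12 tests, so no ratio passed the threshold. Pnpla2 had 4.14, 4.98 and 4.92 counts for each count of G0s2 in PTU replicates 2, 3 and 4 and 22.5 in PTU replicate 1. The same quotient was 21.7 to 31.9 at 6 h and 19.6 to 47.4 at 24 h. PTU replicate 1 therefore sat with the TH libraries in this ratio, and the differences of -2.03 and -1.99 in log2 G0s2/Pnpla2 had an exact permutation p of 0.0571 each (adjusted p = 0.098).

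Lipe/Pnpla2 separated 24 h from PTU, with 34.1 to 38.3 counts of Lipe for 100 of Pnpla2 at 24 h against 47.8 to 81.4 in the PTU group and 67.9 to 78.3 at 6 h. The 24 h difference was -0.90 on the log2 scale (exact permutation p = 0.0286, adjusted p = 0.0686). Plin1/Pnpla2 likewise separated, at 17.5 to 24.0 counts for 100 at 24 h against 40.2 to 77.4 in the PTU group (log2 difference -1.56, same p). Abhd5/Pnpla2 was 4.30 to 4.87 for 100 at 24 h and 5.77 to 10.3 in the PTU group (log2 difference -0.79, same p). The receptor ratio Adrb3/Adrb1 was lower in all TH libraries than in all PTU libraries, with log2 differences of -1.16 at 6 h and -1.34 at 24 h and the same p at each time. Mgll/Lipe overlapped between groups at both times (adjusted p = 0.114 and 0.309). The ratios to Pnpla2 share that gene, so they are independent neither of each other nor of its own difference. Lipe and Abhd5 were themselves not called at 24 h. How often ratios of other gene pairs separate the groups was not counted.

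**Figure D3:**
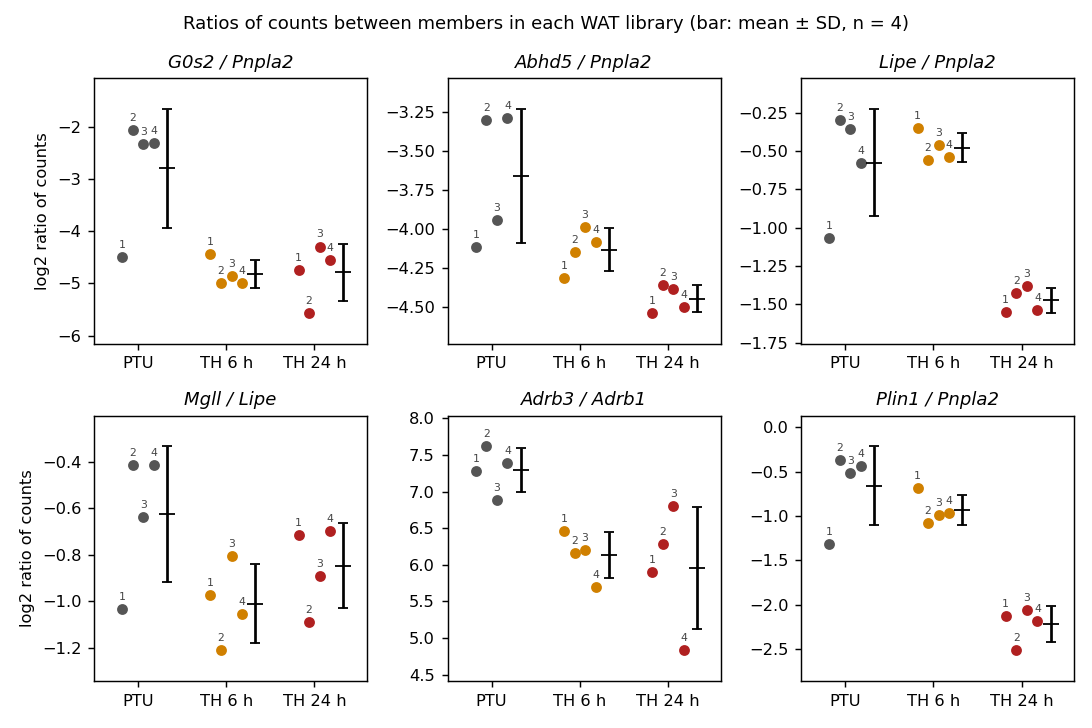
Log2 ratio of the counts of 2 genes (vertical axis) in each WAT library by group, with replicate numbers and mean ± SD (n = 4). Lipe/Pnpla2 and Plin1/Pnpla2 lay lower in all 24 h libraries than in every other library, and PTU replicate 1 had a G0s2/Pnpla2 ratio of -4.49 while the other PTU libraries had -2.32 to -2.05.

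The other genes of the pathway were followed in 10 lists of 104 genes, 99 of which were tested in WAT. At 6 h, 9 were called higher and 5 lower (14.1%, beside the 7.2% of all genes), and at 24 h 13 higher and 22 lower (35.4%, beside 17.1%). Between 24 h and 6 h, 1 was higher and 13 were lower (14.1%, beside 7.41%). By direction, 4.17% of all genes were called higher and 3.02% lower at 6 h, and 7.46% and 9.63% at 24 h. These shares stand beside the counts of every list below. The lists were chosen with earlier results of these data known. Among receptors and their regulators, the α1-adrenoceptor gene Adra1a had a mean of 93.5 ± 41.0 (SD, n = 4) in PTU, 165 ± 22.1 at 6 h and 211 ± 58.0 at 24 h, and was called at 24 h (log2 difference 1.17 ± 0.28, adjusted p = 0.0128). It was the only one called of the 5 other adrenoceptors tested. Of 6 receptor kinases and arrestins, Grk3 was upregulated at both times, by 1.08 ± 0.21 (adjusted p = 0.00931) and 1.14 ± 0.21 (adjusted p = 0.00321). Grk5, another kinase of this family, was downregulated at 6 h, from 555 ± 108 to 282 ± 11.4 (adjusted p = 0.00136), and was at 491 ± 58.3 at 24 h.

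For cyclic AMP synthesis and protein kinase A, 2 of 18 genes were higher at 6 h, and 3 were higher and 1 lower at 24 h. The adenylyl cyclase gene Adcy3 went from 459 ± 101 in PTU to 1029 ± 150 at 6 h and 781 ± 98.7 at 24 h (log2 differences 1.16 and 0.76, adjusted p = 0.00124 and 0.00711). Adcy9, a second cyclase, was higher at both times (1.03 and 1.00), its 6 h call being made in 8 of the 12 fits without 1 library. Akap1, which anchors protein kinase A at mitochondria, was higher at 24 h (0.96 ± 0.19, adjusted p = 0.00435). Prkacb, a catalytic subunit of the kinase, was lower at 24 h (-0.33 ± 0.089, adjusted p = 0.0224), in 7 of the 12 fits without 1 library. Of 13 other phosphodiesterases, 1 was higher and 1 lower at 6 h, and 2 were higher and 3 lower at 24 h. Pde8a rose from 507 ± 55.4 to 1023 ± 75.6 and 999 ± 194, and Pde3a, the paralogue of Pde3b, fell from 158 ± 31.1 to 79.3 ± 9.76 and 81.0 ± 16.1. Pde1a (-0.80 ± 0.11) and Pde7b (-0.61 ± 0.15, called in 10 of the 12 fits without 1 library) were lower at 24 h.

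Of 11 antilipolytic receptors and inhibitory G protein genes, Adora1 was higher and Gnai1 lower at 6 h, and at 24 h none was higher and 5 were lower (Hcar2, Ffar2, Ffar4, Npy1r and Gnai1). Ffar2, a receptor for short-chain fatty acids, ranged from 428 to 1691 in PTU and from 125 to 434 at 24 h (log2 difference -2.46 ± 0.45, adjusted p = 0.00305). Ffar4, a receptor for long-chain fatty acids, was lower by -1.30 ± 0.29 (adjusted p = 0.00976). Gnai1, an inhibitory G protein subunit, had 3926 ± 1124 in PTU, 1972 ± 205 at 6 h and 2065 ± 404 at 24 h. Adora1, the adenosine A1 receptor, was measured at 1283 ± 227, 3047 ± 293 and 1693 ± 269, and its 6 h rise of 1.25 ± 0.14 was called (adjusted p = 0.000317).

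Along the insulin signal that reaches Pde3b, 2 of 9 genes were higher and 1 lower at 6 h, and 1 was higher and 2 lower at 24 h. Pik3cb, a catalytic subunit of PI3-kinase, fell from 1264 ± 221 to 727 ± 59.2 and 521 ± 81.2 (adjusted p = 0.00486 and 0.000111). Akt1 rose by 0.56 ± 0.11 at 6 h and 0.85 ± 0.12 at 24 h. Akt2, the main Akt of insulin signalling in adipocytes, was lower at 24 h (-0.42 ± 0.12, adjusted p = 0.0361), in 6 of the 12 fits without 1 library. The insulin receptor gene Insr was called higher at 6 h (0.29 ± 0.078, adjusted p = 0.0427), in 4 of those 12 fits. In the natriuretic peptide arm, which drives lipolysis through cyclic GMP, 1 of 4 genes was called, Npr1 at 6 h (-0.51 ± 0.13, adjusted p = 0.0406), in 2 of the 12 fits.

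Other droplet proteins had 1 of 14 called higher at 6 h, and 2 higher and 5 lower at 24 h. Cidec, which enlarges droplets by fusion, had 43643 ± 21557 in PTU, 36971 ± 5894 at 6 h and 11978 ± 5014 at 24 h (log2 difference at 24 h -1.87 ± 0.34, adjusted p = 0.00309). Cav1, a caveolar coat protein, fell by 1.06 (SE 0.13) and Bscl2 (seipin) by 0.51 (SE 0.11) at 24 h. Plin5, a perilipin of oxidative tissues, was higher at 24 h, at 439 ± 181 against 164 ± 61.9 (1.42 ± 0.30, adjusted p = 0.00746). Of 8 other lipases and hydrolases, 2 were higher and 3 lower at 24 h, while at 6 h the smallest adjusted p was 0.0518 (Abhd6). Lpl, which frees fatty acids from circulating triglyceride, went from 147722 ± 28012 to 86055 ± 4770 at 24 h (adjusted p = 0.00284), and Ces1f, a carboxylesterase, from 8160 ± 1790 to 4291 ± 222. Abhd12 was lower by -0.38 ± 0.090. Pnpla3, the closest relative of Pnpla2, was higher at 24 h (0.98 ± 0.22, adjusted p = 0.0112).

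Among 11 genes for the fate of the products, 1 was higher at 6 h, and 1 was higher and 3 lower at 24 h. Acsl1, which activates fatty acids with coenzyme A, had 46331 ± 6058 in PTU, 43270 ± 3707 at 6 h and 12348 ± 5400 at 24 h (-1.91 ± 0.26, adjusted p = 0.000505). Dgat1, which makes triglyceride again, fell from 3607 ± 449 to 1599 ± 234 (adjusted p = 9.4e-05) and the fatty acid transporter gene Cd36 from 51131 ± 9284 to 28140 ± 3314. Gk, which phosphorylates glycerol, was higher at both times, by 1.70 ± 0.43 (adjusted p = 0.0333) and 1.51 ± 0.43 (adjusted p = 0.0295), in 6 and 8 of the 12 fits without 1 library.

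**Figure D4:**
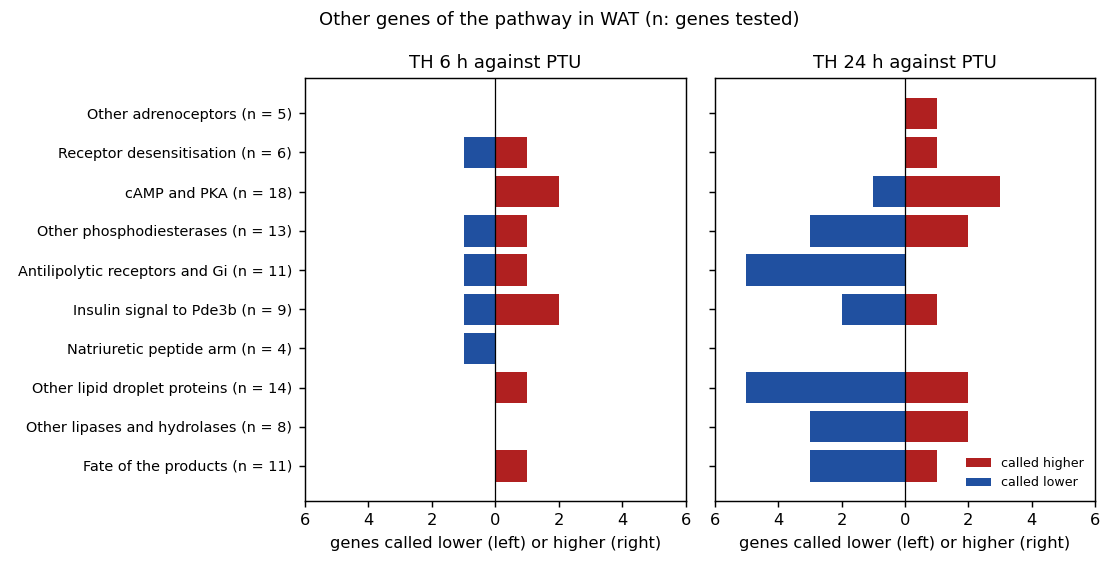
Number of genes called lower (bars to the left) and higher (bars to the right) in WAT at TH 6 h and TH 24 h against PTU, for the 10 lists of other pathway genes with the number tested in each. At 24 h, 5 of 11 antilipolytic receptors and inhibitory G protein genes and 5 of 14 other droplet proteins were called lower, beside 9.63% of all genes tested.

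Likeness was measured as the Pearson correlation of log2 normalised counts over the 12 WAT libraries among 12180 genes, a description over libraries that share groups and scaling. Plin1 was followed most closely by Dgat1 (r = 0.98) and Emc9 (0.95), and Pde3b by Tmem120a (0.98) and Acsl1 (0.97). For G0s2 these genes were Armcx1 (0.95) and Cmtm6 (0.94), for Pnpla2 Gm5421 (0.97) and Eif3c (0.97), for Lipe Cebpa (0.95), and for Mgll Aqp7 (0.96) and Braf (0.91). For the receptors they were Ephb2 (0.87) and Tspan14 (0.86) with Adrb3, and Gm20532 (0.90) and Dll4 (0.89) with Adrb1. Abhd5 was nearest to Camkk2 (0.88) and Tmem5 (0.86).

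Levels of different genes were set side by side per kb of exon. In WAT, Pnpla2 had a mean of 14920 normalised counts per kb over the 12 libraries, followed by Lipe (4237), Plin1 (4069), G0s2 (3526), Mgll (2762), Adrb3 (1488), Pde3b (496), Abhd5 (440) and Adrb1 (16.1). Pnpla2 (8807 to 21303) lay above all libraries of the other 8 genes, and Adrb1 (10.2 to 21.6) below them. The place of G0s2 depended on the group, with 6389 per kb in PTU (above Plin1 at 4809 and Lipe at 4058), 1744 at 6 h (below Mgll at 3019) and 2444 at 24 h (just below Plin1 at 2596). The neighbours from Lipe to Pde3b, and Pde3b and Abhd5, overlapped in their ranges. In striatum the order was Mgll (252), Abhd5 (61.3), Pnpla2 (51.2), G0s2 (42.0), Adrb1 (40.9), Pde3b (20.5), Lipe (10.1), Adrb3 (2.52) and Plin1 (0.241). Mgll, which degrades the endocannabinoid 2-arachidonoylglycerol in brain, was above all others there. Pnpla2 and Adrb1 overlapped with each other and with both Abhd5 and G0s2, while Abhd5 (56.3 to 71.9) lay above G0s2 (27.4 to 55.0) in all libraries. Adrb1 was the gene of the 9 whose counts per kb were higher in striatum than in WAT, though the tables were scaled and counted separately and this was not tested.

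**Figure D5:**
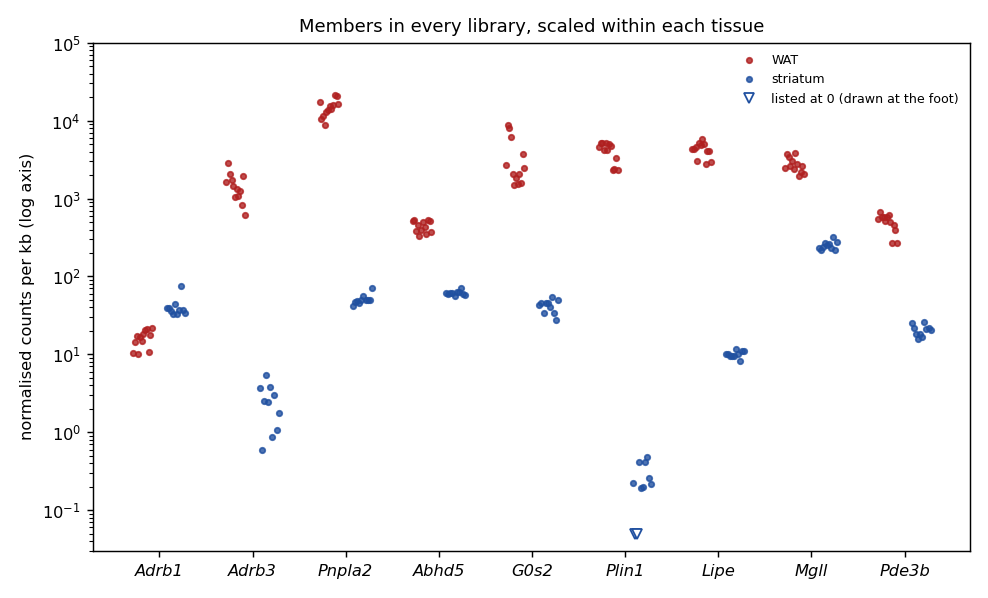
Normalised counts per kb of exon (log axis) of the 9 genes in all 12 WAT libraries and all 10 striatum libraries, scaled within each tissue; triangles stand for libraries in which the gene was listed at 0. Plin1 reached at most 2 counts in a striatum library, and Mgll and Abhd5 had the highest mean levels there.

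In striatum, 7 of the 9 genes were tested; Adrb3 (2 to 19 counts per library) and Plin1 (0 to 2 counts) were too low. None was called at 12 h, 24 h or between the times by edgeR or DESeq2, and the numbers at an unadjusted p under 0.05 were 1, 0 and 1 with either tool. Over all 15839 genes tested, 0.96% were called at 12 h, 0.347% at 24 h and 0% between 24 h and 12 h (edgeR, 266 called between the times by DESeq2). With edgeR, 3201, 1529 and 2313 of these genes had an unadjusted p under 0.05. The known responder Hr was called higher by edgeR at 12 h (log2 difference 2.49 ± 0.21, adjusted p = 0.00259) and 24 h (2.68 ± 0.21, adjusted p = 0.00124). So was Klf9, at 12 h (0.51 ± 0.099, adjusted p = 0.0422) and 24 h (0.88 ± 0.10, adjusted p = 0.00979). Pde3b, with an unadjusted p under 0.05 at 12 h, was measured at 231 and 198 in PTU, at 165, 145, 165 and 152 at 12 h and at 234, 191, 201 and 188 at 24 h. The 12 h libraries were below all others, though with 2 PTU libraries, and how many of all genes separated in striatum was not counted. The 12 h libraries also had lower sums of 8 striatal projection neuron markers (16269 to 27278) and higher sums of 5 cortical excitatory neuron markers (9111 to 14600) than the PTU libraries (30893 and 45056, 6857 and 3768), and the part of this in the difference was not tested. Its log2 difference at 12 h was -0.45 ± 0.12 (adjusted p = 0.0933), and it was called with the PTU and 12 h groups alone (adjusted p = 0.0474) and without TH 24 h replicate 2, the library low in Drd2 (adjusted p = 0.0480). At 24 h it was -0.07 ± 0.12 (adjusted p = 0.881).

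None of the other 6 genes had an unadjusted p under 0.05 in striatum. Mgll ranged from 1102 to 1172 in PTU, 1216 to 1350 at 12 h and 1115 to 1650 at 24 h (log2 difference at 12 h 0.18 ± 0.14, adjusted p = 0.501). Pnpla2 ranged from 127 to 141, 138 to 168 and 151 to 217 (log2 difference at 24 h 0.32 ± 0.17, adjusted p = 0.579). G0s2 ranged from 37.7 to 39.6, 29.3 to 40.1 and 23.8 to 47.9, and its differences of -0.09 ± 0.27 and -0.09 ± 0.28 were not called. Abhd5 (335 to 428), Lipe (48.2 to 68.3) and Adrb1 (112 to 257) overlapped between all 3 groups, and the log2 difference of Adrb1 at 24 h turned from 0.23 to -0.14 without TH 24 h replicate 2.

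Whether the 24 h response differed between the tissues was tested as an interaction over the 22 libraries, in which 5.37% of 12778 genes were called. None of the 7 genes was called by edgeR or DESeq2, and 3 had an unadjusted p under 0.05 with either tool. Over all 12778 genes, 2635 reached that level with edgeR and 2601 with DESeq2. The 3 of these 7 genes are named next. These were Pde3b (WAT minus striatum -0.69 ± 0.23, adjusted p = 0.0826), Mgll (-0.70 ± 0.24, adjusted p = 0.0995) and G0s2 (-1.28 ± 0.54, adjusted p = 0.177). Without WAT PTU replicate 1 the difference was called for G0s2 (-1.54, adjusted p = 0.0264) and Mgll (-0.79, adjusted p = 0.0419), and without WAT 24 h replicate 2 for Pde3b (-0.85, adjusted p = 0.0157). The calls of Pnpla2, G0s2 and Pde3b in WAT are thus not shown to differ from striatum in the fit with all libraries, and Plin1 could not be tested there. Xist was 22068 to 30102 in the striatum 24 h libraries, 17.8 and 33691 in those of PTU, and at most 8.73 in WAT. No fit of the interaction held a Y-linked covariate, so the part of sex in it was not tested.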

How the data were processed

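The authors deposited raw counts per gene symbol, 1 table for each tissue. Per the labels and the study, RNA was prepared with Trizol (WAT) or RNeasy columns (striatum), and libraries (Lexogen SENSE) were read on a NextSeq instrument, aligned with Bowtie2 2.2.6.2 to GRCm38, filtered at an alignment quality of 10 and counted with htseqcount. The submitters' notes also name DESeq2. Strand setting and annotation release are not given in the sources used here. In WAT, 129 rows copied another within 2% in every library, which no striatum row did, so the tissues may not have been counted alike; none was 1 of the 9 genes.

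TMM scaling and two-sided quasi-likelihood F tests were run with edgeR 4.0.16 (R 4.3.3), and DESeq2 1.42.0 served as an alternative. The 3 groups of a tissue, taken from the labels, were fitted together with no covariate, and the interaction over all 22 libraries. A row entered the test when its mean normalised count exceeded 10. Benjamini-Hochberg adjustment covered all genes tested, and calls required an adjusted p below 0.05 but no fold. SE is the absolute log2 fold change over the square root of F. On simulated counts for TH 24 h against PTU in WAT (17788 genes), 72% of 100 genes changed by 1 on the log2 scale and 97% of 100 changed by 2 were recovered. In that simulation 9 unchanged genes were called. The changed genes were drawn from the more abundant ones and were far fewer than the 3066 called in the data. Recovery in the data may therefore differ. Ratios used 0.5 added to each count and exact permutation tests (scipy 1.17.1). Libraries of a group differed beyond sampling noise (chi-square per degree of freedom 3.46 to 87.1). The labels do not say that replicates are separate animals, so p-values measure the spread between libraries.

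The 9 genes and the lists were chosen with earlier results of these data known. Named beside the 9 were, from each list, the called genes with the 4 smallest p-values at 6 h or 24 h, for likeness the 2 genes with the highest correlation, and Hr and Klf9 as known responders. Grk3 was read from the row of its older symbol Adrbk2. Hcar2, Npy1r and Abhd6 fall outside this rule and were named after their values were seen. For Lipe, 1 of the 2 genes named for likeness is not reported here. Gene positions are those of GENCODE M21. Alternatives were DESeq2, other scaling factors, no filter, 2 groups alone, a replicate block, a Y-linked covariate in striatum, leaving out the copied rows, other added counts for ratios and leaving out each library. The marker covariates, the pairs of libraries left out and the block between the TH groups of striatum were chosen after seeing the data.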

Additional observations from a re-analysis of the deposited data

Results flagged for a closer look

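The lowest or highest library stood apart from the other 3 of its group by more than Dixon's 95% critical value for 4 values in 6 of 60 groups tested, where chance flags about 1 in 20. In WAT, Plin1 at TH 24 h was 15233 normalised counts in replicate 3 against 10863 to 11256 in the others. PTU replicate 1 stood apart in the log2 ratio G0s2/Pnpla2, at -4.49 against -2.32 to -2.05, and in Plin1/Pnpla2, at -1.32 against -0.52 to -0.37. In striatum, Adrb1 was 257 in TH 24 h replicate 2 (114 to 126 in the others), Pnpla2 was 217 in TH 24 h replicate 4 (151 to 152) and Lipe was 68.3 in TH 12 h replicate 4 (55.7 to 56.2).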

How the results depend on the processing

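In WAT, the calls of Plin1, G0s2 and Pde3b at 24 h were made under all 23 alternatives and that of G0s2 at 6 h under 22. The number of the 9 genes called became 0 at 6 h without 6 h replicates 1 and 3. Between 24 h and 6 h it became 1 with the muscle covariate, 0 with the epithelial covariate, 5 without PTU replicates 1 and 4 and 0 without 6 h replicates 1 and 3, and it ranged from 1 to 3 without 1 library. In striatum at 12 h it became 1 with 2 groups alone and ranged from 0 to 1 without 1 library, and for the interaction it ranged from 0 to 2. Differences near 0 that were never called changed sign. In WAT at 6 h these were Mgll (0.067 with library size only, 0.0050 with 2 groups alone, -0.15 to 0.096 without 1 library) and Plin1 (0.0013 with DESeq2, 0.0037 with RLE factors, 0.093 with library size only, 0.025 with 2 groups alone, -0.037 to 0.055 without 1 library). Between 24 h and 6 h they were Adrb1 (-0.016 with library size only, -0.086 to 0.19 without 1 library), Adrb3 (0.11 with the muscle covariate, 0.14 without 6 h replicates 1 and 3, -0.45 to 0.14 without 1 library) and Abhd5 (-0.027 to 0.19). In striatum they were Abhd5 at 12 h (-0.036 to 0.017) and, at 24 h, Adrb1 (-0.14 to 0.35), Lipe (0.014 with the Y-linked covariate, -0.063 to 0.052), Abhd5 (-0.0074 with library size only, -0.034 to 0.099), G0s2 (0.00785 with the Y-linked covariate, -0.26 to 0.057) and Pde3b (-0.18 to 0.026). The ratio Lipe/Pnpla2 at 6 h ranged from -0.066 to 0.19. The causes were not tested.

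Over all genes, counts of calls moved by more than 1.5 times. At 6 h in WAT 1291 became 2146 with DESeq2, 833 with 2 groups alone, 647 with the epithelial covariate and 324 without 6 h replicates 1 and 3 (685 without 6 h replicate 3 to 1901 without PTU replicate 1). At 24 h 3066 became 2038 with 2 groups alone (1952 without PTU replicate 2 to 4272 without PTU replicate 1). Between 24 h and 6 h 1329 became 2169 with DESeq2, 2441 with 2 groups alone, 462 and 255 with the muscle and epithelial covariates, and 2456 and 178 without the PTU and 6 h pairs of libraries (661 to 2040 without 1 library). In striatum 152 at 12 h became 868 with DESeq2, 306 with no filter, 1458 with 2 groups alone and 60 with the Y-linked covariate (0 to 1262), and 55 at 24 h became 203, 104, 0 and 3 and 36 with library size only (0 to 115). Between the striatum times 0 became 266 with DESeq2 and 41 with no filter (0 to 105). The interaction's 686 became 242 with 4 groups alone (216 to 1085).

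With the replicate number as a block in WAT, 1, 3 and 2 of the 9 genes were called at 6 h, at 24 h and between the times, since Pnpla2 at 24 h was lost (adjusted p = 0.0673), and Plin1 at 6 h was 0.00053. The block moved the calls between 24 h and 6 h over all genes to 776. Same-numbered libraries deviated with correlations from -0.47 to 0.38, which do not settle whether a number marks a shared batch. In striatum TH 12 h and 24 h share numbers 1 to 4. Same-numbered libraries there had correlations from -0.058 to 0.26, and the block over the 8 TH libraries, added after seeing the data, called 0 of the 7 genes and 7 genes in all. No paired analysis was possible for the striatum comparisons with PTU because those groups share fewer than 2 replicate numbers.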

Other observations

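Over the 12 WAT libraries, which share groups and scaling, the 36 pairs of the 9 genes had Pearson correlations of log2 normalised counts between -0.61 (Pnpla2 and G0s2) and 0.87 (Plin1 and Pde3b). Mgll and Plin1 (0.84), Mgll and Pde3b (0.77), Adrb3 and G0s2 (0.76) and Lipe and Plin1 (0.72) were next in order, and Plin1 and Pnpla2 were at -0.58.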
